A study of Mus musculus with 4 samples.

Results

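The genes described here are the neurotrophins, the glial-derived factor Gdnf, their receptors and the neurotrophin-responsive gene Vgf, chosen by gene symbol as a list of 8: Bdnf, Ntf3, Ntf5, Gdnf, Ntrk2, Ntrk3, Ngfr and Vgf. The platform annotation names a feature for 5 of them, Bdnf, Gdnf, Ntrk2, Ntrk3 and Ngfr, with 6 features in all out of 18218 that carry 1 gene symbol. It names none for Ntf3, Ntf5 or Vgf, which are not analysed here. Frontal cortex RNA came from male ddY mice aged 13 weeks and weighing 38 to 43 g, an outbred stock with no engineered allele named in the labels. Mice received an intraperitoneal injection each day for 28 days. The phenothiazines chlorpromazine and thioridazine were both given at 25 mg/kg, while the dose of olanzapine was 1.25 mg/kg and that of quetiapine 18.75 mg/kg; control mice received vehicle. The drugs were brought into saline by way of acetic anhydride. Each drug has 1 Agilent array, on which drug RNA in cyanine 5 was set against vehicle RNA in cyanine 3, with no dye swap. The number of mice behind an array, and whether the arrays shared a vehicle RNA, are not given in the sources used here.

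Neurotrophins are secreted growth factors that keep neurons alive and adjust their synapses. BDNF acts mainly through the receptor tyrosine kinase TrkB, encoded by Ntrk2, and neurotrophin-3 through TrkC, encoded by Ntrk3, while the p75 receptor encoded by Ngfr binds all mature neurotrophins and their uncleaved precursors. GDNF belongs to a separate family and signals through Ret with a GFRα co-receptor. In cortex, Bdnf is made by excitatory neurons, and its transcription follows neuronal activity; antipsychotic drugs, which share block of dopamine D2 receptors, have often been examined for effects on it.

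Transcription of Bdnf begins at several separate starts, and RefSeq sequence (GRCm38.p6, plus strand of chromosome 2) gives 7 of them. Their last 60 bases before each start are shown because activity-dependent control of Bdnf is known from one such region. Capitals mark CATATG, a sequence of the E-box form, and TCACGTCA, the form of the cAMP response element known from the activity-dependent rat promoter. Both strands were searched, and the motifs do not overlap.
Bdnf start 1, chr2:109674640-109674699: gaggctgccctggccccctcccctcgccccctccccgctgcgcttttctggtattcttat
Bdnf start 2, chr2:109676972-109677031: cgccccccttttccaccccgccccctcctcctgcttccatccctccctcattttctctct
Bdnf start 3, chr2:109692376-109692435: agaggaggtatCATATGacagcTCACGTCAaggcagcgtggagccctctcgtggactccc
Bdnf start 4, chr2:109692967-109693026: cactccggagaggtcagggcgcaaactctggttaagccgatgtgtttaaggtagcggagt
Bdnf start 5, chr2:109694349-109694408: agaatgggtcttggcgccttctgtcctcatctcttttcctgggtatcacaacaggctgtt
Bdnf start 6, chr2:109709323-109709382: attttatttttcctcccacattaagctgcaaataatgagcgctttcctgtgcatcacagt
Bdnf start 7, chr2:109722861-109722920: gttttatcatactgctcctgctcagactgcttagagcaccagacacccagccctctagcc
In windows of 300 bases, 250 of them before a start, TCACGTCA was found at 1 of the 7 Bdnf starts, against 0.441% of 32851 windows of all genes. TCACGTCA was searched because it is known from the rat Bdnf promoter, so these shares do not test for enrichment. CATATG was found at 2 Bdnf starts and in 3.91% of all windows, and the palindromic response element TGACGTCA at 0 Bdnf starts and in 1.79% of all windows. At the third start CATATG lies 49 to 44 bases and TCACGTCA 38 to 31 bases before the start. The 4 windows of Gdnf, Ngfr and Ntrk2 held none of these motifs. The array gives a single ratio for Bdnf, and which of these starts that feature can report was not established.

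Values are log2 ratios, read as drug over vehicle. The deposited values were taken as log10 ratios, which is the scanner software's own form; scale, centring and direction are not stated for the table, so drug over vehicle is the likely direction only. Over all features the log10 median was 0.00376 for olanzapine and 0 for each of the other drugs. The standard deviation over genes ran from 0.33 for chlorpromazine to 0.59 for olanzapine. No drug has a second array, so the only error on a single array is technical: features sharing an accession that was spotted 10 or more times (48 accessions) differed by a median SD of 0.06 for chlorpromazine, 0.16 for thioridazine, 0.16 for olanzapine and 0.10 for quetiapine. These are called spot SDs below. They come from the repeated accessions, not from the features described here, and leave out the spread between mice. Genes with 2 features had larger median gaps between them: 0.23 for chlorpromazine, 0.34 for thioridazine, 0.35 for olanzapine and 0.31 for quetiapine. A gap given in spot SDs may therefore look more certain than it is. The table holds ratios without signal levels, so neither the abundance of these RNAs nor the cortical identity of the tissue could be checked, and in whole tissue a change in the number of cells cannot be told apart from a change of RNA per cell. With 4 arrays in all, their number limits how precise any mean can be. Standard errors (SE) and intervals below come from the limma fit, in which each gene's variance is moderated with those of other genes. The SD over the 4 arrays given beside them is not moderated, so the SE does not follow from it.

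**Figure D1:**
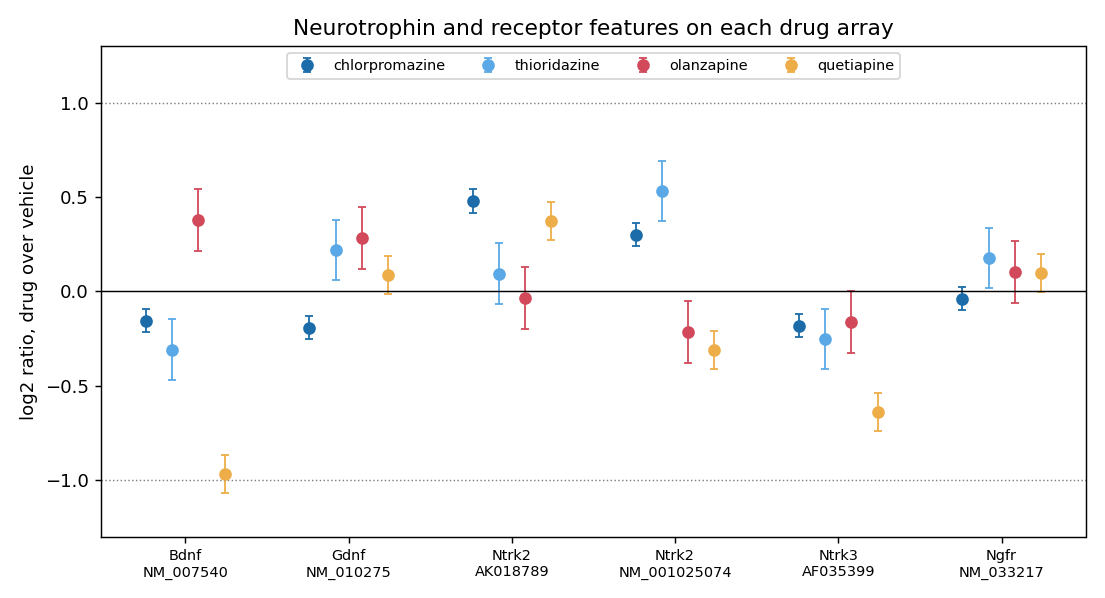
Log2 ratio of drug over vehicle (vertical axis) for each feature of Bdnf, Gdnf, Ntrk2, Ntrk3 and Ngfr, 1 point per drug array; bars are 1 spot SD of that array, and dotted lines mark 2-fold. Bdnf with quetiapine, at -0.97, lies farthest from 0, and the 2 features of Ntrk2 take opposite signs with quetiapine.

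Bdnf, the activity-dependent ligand of TrkB, spanned the widest range of these genes across the drugs. Its log2 ratio was -0.16 for chlorpromazine, -0.31 for thioridazine, 0.38 for olanzapine and -0.97 for quetiapine. Quetiapine stood lowest, 1.96-fold below vehicle, and olanzapine was the only array above 0. In order from the lowest, the quetiapine value lay 0.66 below that of thioridazine and the chlorpromazine value 0.54 below that of olanzapine, gaps of 3.5 and 3.06 combined spot SDs. Thioridazine and chlorpromazine, 0.15 apart, did not differ beyond their combined spot SD. On the quetiapine array 2.53% of genes had a lower ratio than Bdnf, and on the olanzapine array 14.7% had a higher one. The mean of the 4 arrays was -0.26 (SD 0.56, SE 0.22, n = 4 arrays), which did not pass against 0 (limma adjusted p = 0.47), and without the quetiapine array it was -0.03. The phenothiazines, chlorpromazine and thioridazine, had a mean of -0.23, and olanzapine and quetiapine, whose tricyclic cores hold an azepine ring, of -0.30. The difference of 0.06 (95% interval -1.35 to 1.47) combines olanzapine and quetiapine values of opposite sign; it was 0.74 without olanzapine, -0.61 without quetiapine and -0.01 without chlorpromazine, and none passed. Doses differed between these drugs, so a class difference is not one at matched doses.

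Immediate early genes, which neuronal activity switches on within minutes, were set beside Bdnf for that reason. Of 18 measured, 14 lay above 0 with olanzapine and 13 below 0 with quetiapine, with medians of 0.34 and -0.29; the medians were -0.06 for chlorpromazine and -0.09 for thioridazine, and all genes had medians between 0.01 and 0.02. With quetiapine, 3 of the 18 were at least 2-fold below vehicle, against 2.31% of all genes: Arc, a postsynaptic protein of synaptic plasticity, at -2.56, and the transcription factors Egr2 at -2.40 and Egr1 at -1.98. Like Bdnf, 7 of the 18 had their lowest ratio with quetiapine and their highest with olanzapine, a combination found in 11.5% of all genes and looked for after Bdnf had shown it. Arc, Egr1 and Egr2 were below 0 with olanzapine, where Bdnf was above it. The other 3 arrays of Arc were at -0.78, -0.96 and -0.44 (chlorpromazine, thioridazine, olanzapine), and its mean of -1.19 (SE 0.37) did not pass (limma adjusted p = 0.151). Of the 18 genes 0 passed with limma in the mean of the 4 arrays, and 4 had an unadjusted p under 0.05, against 26.2% of all genes. Of the 18 means 10 were above 0, as were 8229 of 16139 over all genes. Promoter windows were found for 13 immediate early genes, 18 windows in all. Of these windows 1 held TCACGTCA and 2 held TGACGTCA, against 0.441% and 1.79% of all windows, and enrichment was not tested.

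**Figure D2:**
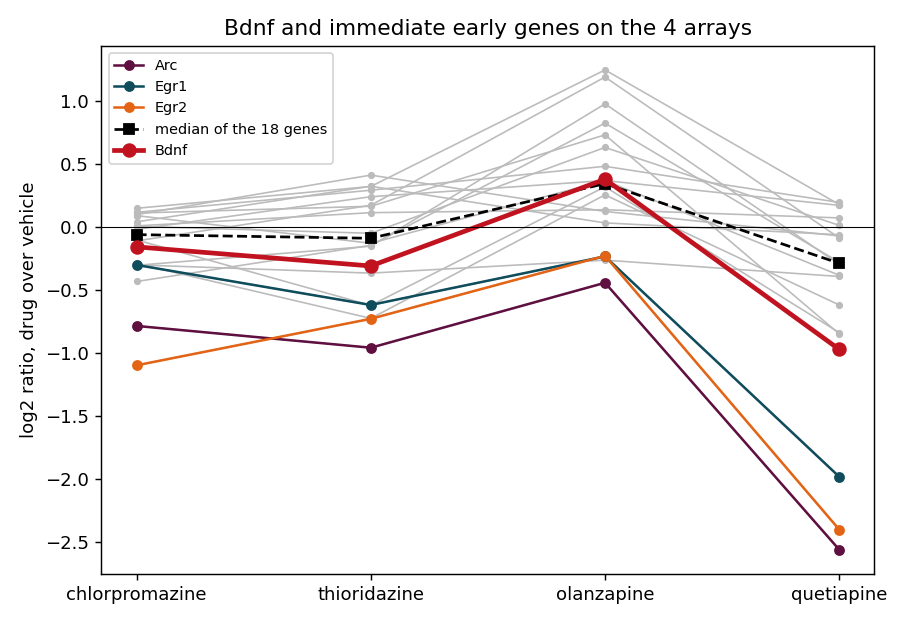
Log2 ratio of drug over vehicle (vertical axis) on the 4 arrays for Bdnf (thick red), 18 immediate early genes (grey, with Arc, Egr1 and Egr2 coloured) and their median (dashed). Lines only join values of one gene; the median is 0.34 for olanzapine and -0.29 for quetiapine, where Bdnf is at 0.38 and -0.97.

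The genes most like Bdnf over the 4 arrays, by the root-mean-square difference of log2 ratios, were Slc16a1, the monocarboxylate transporter MCT1, at 0.12, Irgq at 0.12 and Rabl6 at 0.14. Slc16a1 had values of -0.07 for chlorpromazine, -0.19 for thioridazine, 0.23 for olanzapine and -0.85 for quetiapine. In all, 29 genes came within 0.2 of Bdnf, and 4 values per gene make such likeness a description only.

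Gdnf, a survival factor for midbrain dopamine neurons, had small ratios. Its log2 ratio was -0.19 for chlorpromazine, 0.22 for thioridazine, 0.28 for olanzapine and 0.08 for quetiapine. Chlorpromazine was the only array below 0, at -3.17 spot SDs, and lay 0.28 below quetiapine; the other 3 arrays did not differ from their neighbours in order beyond the combined spot SD. The mean was 0.10 (SD 0.21, SE 0.10, n = 4 arrays; limma adjusted p = 0.534). The class difference of -0.17 (95% interval -0.75 to 0.40) did not pass and was 0.03 without chlorpromazine.

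Ntrk2, which encodes the BDNF receptor TrkB, has 2 features on the array. They had opposite signs with quetiapine and the same sign with each other drug. Alternative transcripts of Ntrk2 encode a full-length kinase receptor and truncated receptors that lack the kinase; astrocytes express mainly a truncated form. The feature of accession AK018789 had log2 ratios of 0.48 for chlorpromazine, 0.09 for thioridazine, -0.03 for olanzapine and 0.37 for quetiapine. It was thus highest with chlorpromazine and quetiapine, which lay within their combined spot SD of each other, and near 0 on the other arrays. The feature of accession NM_001025074 had 0.30 for chlorpromazine, 0.53 for thioridazine, -0.21 for olanzapine and -0.31 for quetiapine. Both phenothiazines were above 0 and both azepine-ring drugs below it. With quetiapine the first feature exceeded the second by 0.68, and 17.4% of genes with 2 features differed by as much. With thioridazine the first was lower by 0.44, and 41.5% of such genes differed by as much. With chlorpromazine and with olanzapine the first was higher by 0.18, a gap reached by 59.6% and 70.2% of such genes. Which transcripts each feature reports was not established.

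For the NM_001025074 feature the phenothiazine mean was 0.42 and the azepine mean -0.26, a difference of 0.68 (95% interval 0.25 to 1.11) that did not pass among all features (limma adjusted p = 1.0). At an unadjusted p under 0.05 there were 510 of 17760 features, 2.87%, this one among them. Both phenothiazines were above 0 and both azepine-ring drugs below it for 2.76% of features, and the classes lay on opposite sides of 0 either way for 5.2%. The AK018789 feature had a class difference of 0.12 (95% interval -0.55 to 0.78). Averaged over both features, Ntrk2 was at 0.39 for chlorpromazine, 0.31 for thioridazine, -0.12 for olanzapine and 0.03 for quetiapine, a mean of 0.15 (SD 0.24, SE 0.11, n = 4 arrays; limma adjusted p = 0.398). The averaged class difference was 0.40 (95% interval 0.01 to 0.78; limma adjusted p = 0.999). Astrocyte markers had medians of 0.21, 0.18, 0.19 and -0.10 in the drug order used throughout over 9 measured genes, and their part in the Ntrk2 values was not tested. For olanzapine 6 of the 9 were above 0 and 3 below, with 3 at least 2-fold higher, among them Fgfr3 at 3.45 and Gja1 at 3.59, and 1 at least 2-fold lower.

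Ntrk3, which encodes the neurotrophin-3 receptor TrkC, was below 0 on every array. Its log2 ratio was -0.18 for chlorpromazine, -0.25 for thioridazine, -0.16 for olanzapine and -0.64 for quetiapine. Quetiapine was lowest, 1.56-fold below vehicle and 0.39 below thioridazine, while the other 3 arrays lay within their combined spot SDs of one another in order. On the quetiapine array 6.26% of genes had a lower ratio. The mean of -0.31 (SD 0.22, SE 0.10, 95% interval -0.57 to -0.05, n = 4 arrays) was the farthest from 0 of the 5 genes. It did not pass (limma adjusted p = 0.158), though its unadjusted limma p was under 0.05. That unadjusted p and the interval rest on the moderated variance. In the fit without moderation the unadjusted p of the Ntrk3 mean was 0.070. Over all 16139 genes measured on the 4 arrays, 14.2% had a mean below 0 with an unadjusted p under 0.05, and 18.9% were below 0 on all 4 arrays. Without the quetiapine array the mean was -0.20. The class difference was 0.18 (95% interval -0.41 to 0.78) and -0.06 without quetiapine. The nearest genes over the 4 arrays were Best3, Rragc, a GTPase of amino acid sensing, and Ccdc61, each at a root-mean-square difference of 0.04; 833 genes came within 0.2.

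Ngfr, the p75 receptor, which in adult forebrain marks cholinergic neurons of the basal forebrain, varied least. Its log2 ratio was -0.04 for chlorpromazine, 0.18 for thioridazine, 0.10 for olanzapine and 0.10 for quetiapine. All 4 values lay within 1.1 spot SDs of 0, and chlorpromazine was lowest, 0.14 below quetiapine. The mean was 0.08 (SD 0.09, SE 0.06, 95% interval -0.08 to 0.25, n = 4 arrays; limma adjusted p = 0.422) and the class difference -0.03 (95% interval -0.44 to 0.38), or 0.08 without chlorpromazine. Markers of basal forebrain cholinergic neurons had medians of -0.07, 0.25, 0.19 and 0.15 in the same drug order over 5 measured genes. Of their means 3 were above 0 and 2 below. Isl1 was at 1.27 for olanzapine, where 4 of the 5 were above 0 and 1 below.

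**Figure D3:**
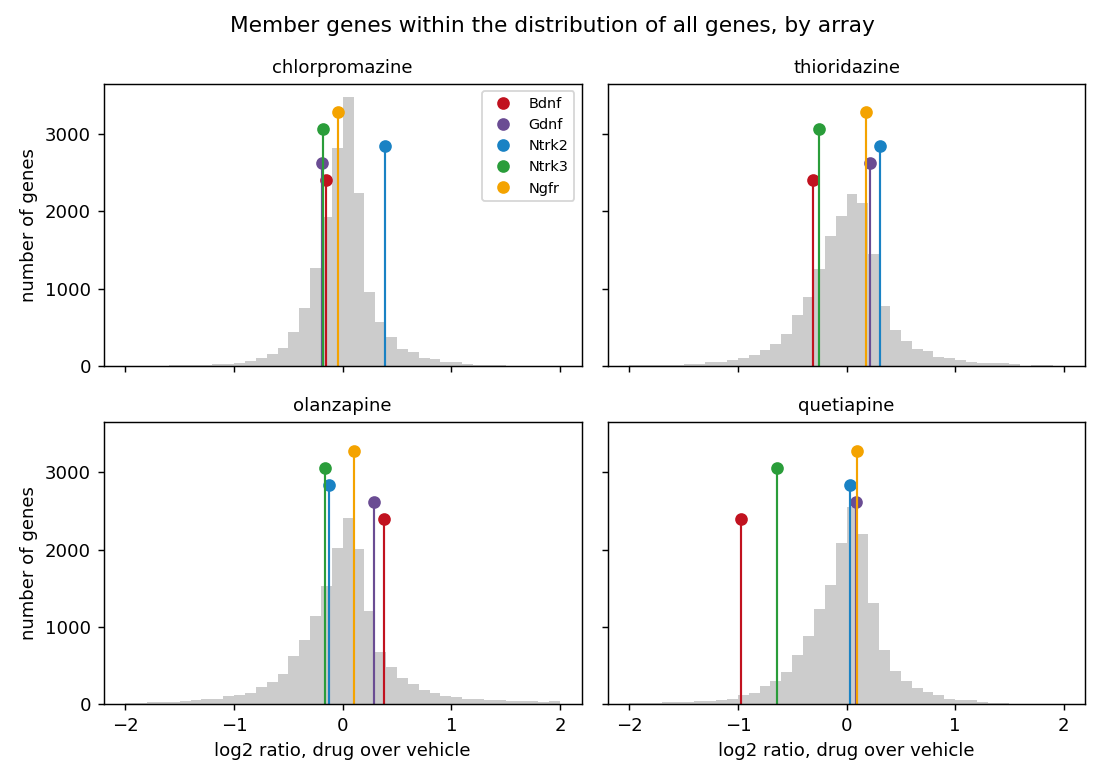
Number of genes (vertical axis) by log2 ratio of drug over vehicle (horizontal axis, bins of 0.1, values beyond 2 left out) on each array, with stems at the ratios of the 5 genes; stem heights only separate the labels. Bdnf and Ntrk3 lie in the lower tail with quetiapine, at -0.97 and -0.64, and the others near the bulk.

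Across the 5 genes, 0 of 20 ratios reached 2-fold, and 18 were under 1.5-fold. The 2 that reached 1.5-fold were Bdnf and Ntrk3, both lower with quetiapine, where 7.57% of all genes were at least 1.5-fold lower. At 1.5-fold in either direction the share of all genes was 6.91% for chlorpromazine, 13.4% for thioridazine, 17.4% for olanzapine and 12.6% for quetiapine. At 2-fold, the share of all genes past the threshold in either direction was 1.69% for chlorpromazine, 4.52% for thioridazine, 7.97% for olanzapine and 3.74% for quetiapine. In the mean of the 4 arrays 3 of the 5 genes were above 0 and 2 below, with a median of 0.08 against 0.01 over all genes. With limma 0 of 5 passed, against 0.149% of all genes, and an unadjusted p under 0.05 was met by 1 of 5 (Ntrk3), against 26.2% of all genes. Between the classes 0 of 5 passed, as did 0% of all genes, and an unadjusted p under 0.05 was met by 1 of 5 (Ntrk2), against 2.84%. The arrays may share a vehicle RNA, so 4 like signs are not 4 independent measurements. Drug RNA was in cyanine 5 on every array, with no dye swap. A dye effect of a feature therefore cannot be told apart from a change shared by the 4 drugs. Over all genes, the median 95% interval reached 0.23 to each side of the mean and 0.50 to each side of the class difference. Of the 5 genes, Bdnf had the widest interval of the mean, from -0.84 to 0.31. A p that missed the threshold does not show that a gene was unchanged.

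Around these genes, 0 genes of any neurotrophic list passed with limma in the mean of the 4 arrays or between the classes. At an unadjusted p under 0.05, used in the counts that follow, 11.9% of all genes were higher and 14.2% lower. Among the remaining receptors, the VPS10-domain sorting receptors that bind neurotrophin precursors and the p75-like gene Nradd, 6 genes were measured, and all 6 means were above 0, with a median of 0.08. Sorcs1 was the largest, with log2 ratios of 1.07 for chlorpromazine, 1.41 for thioridazine, 2.89 for olanzapine and 1.78 for quetiapine and a mean of 1.78 (SE 0.31; adjusted p by limma 0.0869). It was at least 2-fold above vehicle on each of the 4 arrays. On the single arrays, in that order, 0.795%, 1.98%, 4.64% and 1.43% of all genes were. The share of genes at least 2-fold higher on all 4 arrays together was not counted. Sort1, Sorcs2, Sorcs3, Sorl1 and Nradd had means between 0.07 and 0.13. The next largest was Sorl1 at 0.13 (SE 0.16).

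The GDNF family (9 measured, median of the means 0.08) had 6 means above 0 and 3 below, and 2 higher genes at an unadjusted p under 0.05. Ncam1, an alternative GDNF receptor, had a mean of 0.28 (SE 0.10) and the co-receptor Gfra1 of -0.20 (SE 0.17). Ret, the signalling receptor, was at -0.08. Genes that cleave the precursors or regulate that cleavage (12 measured, median 0.16) had 8 means above 0 and 4 below, with 3 higher at an unadjusted p under 0.05. Pcsk5, a proprotein convertase, reached 2.36 for olanzapine but lay between -0.01 and 0.38 on the other arrays, and Mmp7, a metalloproteinase that cleaves proneurotrophins, had a mean of 0.28 (SE 0.06). Furin had a mean of 0.20, and Plat, the plasminogen activator that leads to BDNF cleavage, of 0.18.

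Granins and secretory granule genes (8 measured, median 0.06) had 5 means above 0 and 3 below, while at an unadjusted p under 0.05 there were 3 lower and 1 higher. Cadps2, which promotes BDNF release, was below 0 on 4 of 4 arrays, as were 18.9% of all genes. It averaged -0.44 (SE 0.12, adjusted p by limma 0.139), and the granin Chgb had a mean of 0.32 (SE 0.11). Downstream of the Trk receptors (24 measured, median -0.03) 11 means were above 0 and 13 below, and 7 genes were lower and 1 higher at an unadjusted p under 0.05. The exchange factor Rapgef1 had a mean of -0.52 (SE 0.07, limma adjusted p = 0.0672) and the kinase Mapk7, or ERK5, of -0.40 (SE 0.08). Kidins220, a TrkB-associated scaffold, was at -0.04. Partners of p75 (12 measured, median 0.01) were split evenly, with Traf4 at -0.57 (SE 0.12) and Zfp110, or NRIF, at 0.54 (SE 0.08, limma adjusted p = 0.0711).

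Regulators of Bdnf transcription (16 measured, median -0.01) had 8 means above 0 and 8 below, with 3 of each at an unadjusted p under 0.05. Mef2d had a mean of 0.62 (SE 0.16) and reached 1.08 for olanzapine, and the deacetylase Hdac2 a mean of -0.49 (SE 0.21), with -1.24 on the same array. Creb1, which binds the cAMP response element, was at -0.23 for chlorpromazine, -0.22 for thioridazine, -0.01 for olanzapine and -0.29 for quetiapine. Of the E-box binding factors, Usf1 was at 0.29, -0.02, 0.32 and 0.53 in the same order, and Usf2 at 0.38, -0.07, -0.62 and -0.40, so the pair had opposite signs for olanzapine and quetiapine.

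**Figure D4:**
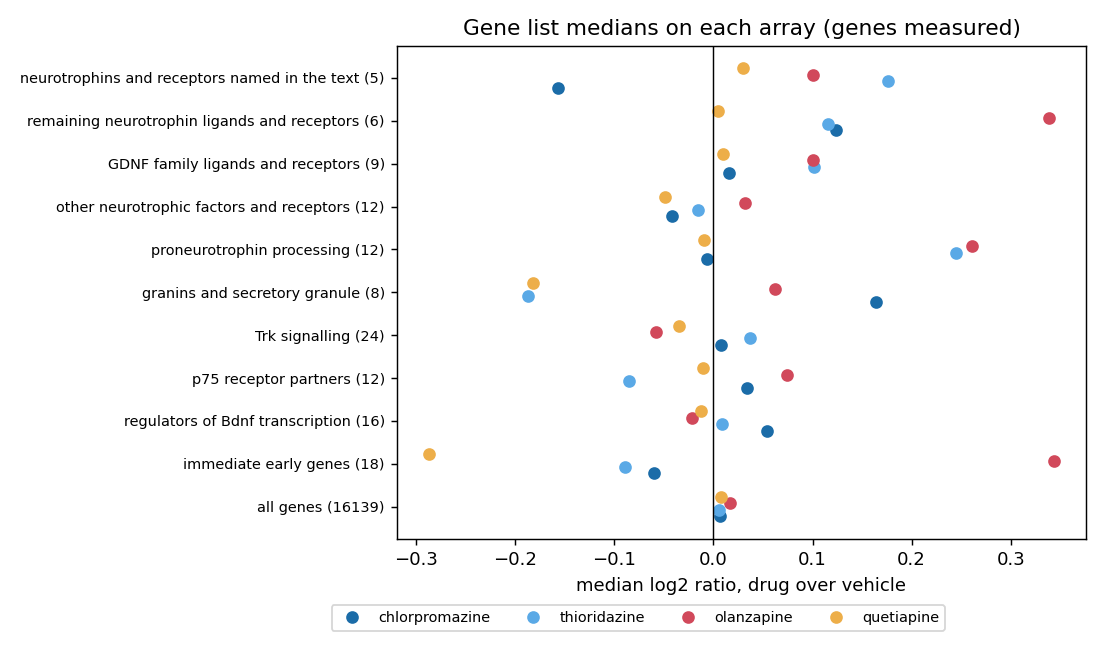
Median log2 ratio of drug over vehicle (horizontal axis) for the members, each pathway list and all genes on each array, with the number of genes measured in brackets. Immediate early genes range from -0.29 for quetiapine to 0.34 for olanzapine, and marker lists are not drawn; all genes lie between 0.01 and 0.02.

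Markers of the cell types in the tissue also differed between arrays, and their part in the ratios above was not tested. Pyramidal neuron markers (6 measured), which include the cells that make Bdnf, had medians of -0.14 for chlorpromazine, -0.02 for thioridazine, -0.19 for olanzapine and -0.07 for quetiapine, and 2 of the 6 had a mean above 0 and 4 below. Interneuron markers had medians between -0.13 and 0.11, striatal neuron markers between 0.05 and 0.16, oligodendrocyte markers between -0.06 and 0.14, and endothelial and pericyte markers between -0.03 and 0.17. Microglia markers ranged from -0.40 for chlorpromazine to 0.31 for thioridazine, leptomeningeal markers from 0.04 for chlorpromazine to 0.41 for thioridazine, and choroid plexus markers from 0.11 to 0.25. Red blood cell markers, of which 3 genes were measured, ranged from -0.86 for olanzapine to 0.91 for thioridazine. Single markers reached 2-fold in both directions. For olanzapine the oligodendrocyte lineage gene Olig2 was at 2.56, the leptomeningeal marker Aldh1a2 at 2.29 and the haemoglobin gene Hba-a1 at -1.87. On that array 4 of 9 oligodendrocyte markers were above 0 and 5 below, with a median of -0.06. Of the leptomeningeal markers 7 of 8 were above 0, and of the red blood cell markers 0 of 3. For quetiapine the endothelial receptor Tek was at -2.31, and the microglial genes P2ry12 and C1qa were at -1.16 and 1.15. On that array 5 of 9 endothelial and pericyte markers were above 0 and 4 below, with a median of 0.04. Of 8 microglia markers 5 were above 0 and 3 below. The red cell haem synthesis gene Alas2 was at 1.16 for thioridazine.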

How the data were processed

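Per the labels, RNA was amplified, hybridised to Agilent mouse oligonucleotide arrays and read with Agilent Feature Extraction 7.1, with dye normalisation by a rank consistency filter and LOWESS. The deposited table holds 1 value per feature and array, read as the log10 ratio of drug to vehicle, and all 4 columns were used. Features were named from the platform annotation (18218 with 1 symbol, 16 with several, 4159 unnamed here); by Entrez identifier 18175 took the current RefSeq symbol. Exact zeros were taken as missing, values were converted to log2, and features of a gene were averaged, giving 16139 genes on all 4 arrays. In limma 3.58.1 (R 4.3.3) each gene's mean over the arrays was tested against 0, every drug counting as a repeat of treatment, and the phenothiazines were tested against the azepine-ring drugs. P-values were adjusted over all genes by Benjamini-Hochberg, at 0.05; the script was tested on simulated data. Nothing labels the arrays as separate animals of 1 group, so the p-values reflect only how far these 4 arrays differ and leave out the spread of vehicle mice. Genes named are all members, the 3 genes nearest to Bdnf and to the member with the largest mean, the 2 largest means of each list and any gene past a test; of marker lists, only those of the 2 largest means that reached 2-fold on an array are named. Sort1, Sorcs2, Sorcs3, Nradd, Ret, Furin, Plat, Kidins220, Creb1, Usf1, Usf2, Egr1 and Manf were named after their values were seen. Members and lists were chosen with earlier results of these data known. Promoter windows are RefSeq's, found for 4 of the 5 genes, without Ntrk3.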

Additional observations from a re-analysis of the deposited data

Results flagged for a closer look

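The NM_001025074 feature of Ntrk2 had both phenothiazines above 0 (0.30 with chlorpromazine and 0.53 with thioridazine) and both azepine-ring drugs below it (-0.21 with olanzapine and -0.31 with quetiapine), a difference of 0.68 between the class means. In the limma fit of all features this difference did not pass (adjusted p = 1.0), and 5.2% of features had the classes on opposite sides of 0. The other feature of the gene had a difference of 0.12.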

How the results depend on the processing

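Over 11 alternatives, 105 of 110 means and class differences of the 5 genes kept their direction and 0 passed with limma. The 5 that changed sign were class differences: Bdnf at -0.01 and Gdnf at 0.033 without chlorpromazine, Ngfr at 0.077 without chlorpromazine, and Bdnf at -0.61 and Ntrk3 at -0.056 without quetiapine. All 5 changes thus arose with an array left out. The 105 include settings that could not change a sign here: other moderation, zeros kept and ratios read as log2 already. The count of 105 therefore overstates how stable the directions are. Leaving out an array removes 1 of the 2 values of a class; with each left out in turn, the class difference ran from -0.61 to 0.74 for Bdnf, from -0.38 to 0.033 for Gdnf, from -0.056 to 0.42 for Ntrk3 and from -0.14 to 0.077 for Ngfr. Across the alternatives the mean of Bdnf ran from -0.48 to -0.03 (adjusted p 0.27 to 0.921) and that of Ntrk3 from -0.36 to -0.09 (adjusted p 0.15 to 0.343), where the values nearest 0 were without quetiapine for Bdnf and with the ratios read as log2 already for Ntrk3. Over all genes, 24 passed in the mean of the 4 arrays; the count was 0 without moderation (3548 at an unadjusted p under 0.05) and 0 to 0 with any 1 array left out (2489 to 3533), and 21 to 27 otherwise. For the classes it stayed 0 throughout (385 to 1332). Read as log2 already, 3, 8, 27 and 7 genes (chlorpromazine, thioridazine, olanzapine, quetiapine) were 2-fold from vehicle. With arrays scaled to one standard deviation the counts were 695 with chlorpromazine (277 before) and 825 with olanzapine (1310 before), and 1 member, Bdnf with quetiapine, passed 2-fold. At 1.5-fold they were 1131, 2186, 2865 and 2050 in the order of the text, with 2 members on the quetiapine array. Of 189 list medians 170 moved by less than their SD between arrays. No paired analysis was possible because the labels give no replicate numbers and each drug has 1 array. The table holds no signal over background, so dim features could not be set apart.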

Other observations

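Other neurotrophic factors and their receptors (12 measured, median of the means -0.02) had 6 means above 0 and 6 below. At an unadjusted limma p under 0.05, 4 genes were lower and 1 higher, with 0 passing after adjustment. Of all genes 14.2% were lower and 11.9% higher at that unadjusted threshold. Ptn, or pleiotrophin, a heparin-binding growth factor of the developing and adult brain, had log2 ratios of -0.67 for chlorpromazine, -1.95 for thioridazine, -1.21 for olanzapine and -1.13 for quetiapine, which average -1.24 (SE 0.21; adjusted p by limma 0.0844). Its 4 arrays were all below 0, as were 18.9% of all genes. Hgf, the ligand of the Met receptor, was at -0.38, -0.69, -0.57 and -0.84 in the same order, which average -0.62 (SE 0.09; adjusted p by limma 0.0704). Manf, a secreted factor of the endoplasmic reticulum stress response, averaged -0.56 (SE 0.07; adjusted p by limma 0.0656).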
